A study of Homo sapiens with 6 samples.

Results

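The USP and OTU deubiquitinase genes were examined in RNA-seq of TFK1 cells, a line from a carcinoma of the extrahepatic bile duct. Members were chosen by symbol, as USP with a number and any letters after it, OTUB1, OTUB2, and OTUD with a digit and an optional letter, and 1 Y-linked USP gene was left out. This gave 59 of the 23569 genes in the table, 50 with USP and 9 with OTU symbols. The groups were TFK1 cells labelled as negative control (oeNC, n = 3 libraries) and TFK1 cells overexpressing STUB1 (oeSTUB1, n = 3 libraries), neither of them with a further treatment. The study sequenced them to look for tumor suppressor genes that respond to STUB1 through UHRF1 and DNMT1. By its methods, overexpressing TFK1 cells were made with lentivirus and selected with puromycin, and no source states that a group was more than 1 stable population, so that the population and STUB1 cannot be told apart. The methods say in general terms that experiments were independent and repeated, but no source says that the libraries of a group came from separate cultures, and the p-values then measure only the spread between these libraries, which may be technical.

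Ubiquitin is attached to proteins by ligases such as STUB1, an E3 ligase that works with HSP70 and HSP90 chaperones, and it is removed by deubiquitinases. USP enzymes form the largest family of these cysteine proteases and mostly choose their targets through domains outside the catalytic core. OTU enzymes are cysteine proteases as well and often prefer ubiquitin chains of a given linkage. USP7 is known to remove ubiquitin from UHRF1 and DNMT1. Some USP symbols stand for proteins without this activity, such as USP39, a splicing factor that lacks the catalytic residues. USP6NL lacks it too, as a GTPase-activating protein for RAB proteins that is named after its likeness to a part of USP6.

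The values are FPKM, which divides a gene's fragments by its length and by the library total. The library totals recovered from them lay between 33106564 and 36744521 fragments. STUB1 was at 32.9, 33.0 and 30.9 FPKM in oeNC and at 61.4, 75.0 and 61.9 FPKM in oeSTUB1. Of 8 genes of biliary epithelium, 6 were at 1 FPKM or more in each oeNC library and 7 in each oeSTUB1 library, and their summed FPKM lay between 7419.7 and 7996.1 in the oeNC libraries and between 4724.5 and 6264.0 in the others. At an adjusted p-value under 0.05 from limma, 4 of the 8 were lower in oeSTUB1, namely KRT8 (log2 fold change -0.57) and KRT18 (-0.68), keratins that make up most of the sum, and the adhesion genes EPCAM (-1.13) and CDH1 (-1.09). KRT19, a defining keratin of bile duct cells, was higher (2.47), from 0.456, 0.374 and 0.529 FPKM in oeNC to 2.51, 3.41 and 2.99 FPKM in oeSTUB1. Without oeSTUB1 replicate 2, KRT7 was higher as well. The summed FPKM of 10 markers of immune, endothelial, stromal and liver cells was 8.69 to 12.2 in every library, with ACTA2 the highest of them. The part of these marker levels in the members' values was not tested. In these bulk libraries fewer cells of a kind and less RNA per cell cannot be told apart. oeSTUB1 replicate 2 stood apart from replicates 1 and 3, and was low for long genes. For the members, results that rest on it are therefore given with and without it.

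Most of the 59 members were expressed. The mean FPKM over 6 libraries was above 20 for 11 members, 5 to 20 for 20, 1 to 5 for 21, 0.1 to 1 for 2 and under 0.1 for 5. The 54 members with a mean of at least 0.1 FPKM were tested, and their median level was 7.38 FPKM, against 4.55 FPKM for the 15353 genes tested in all. The highest tested member was 408-fold above the lowest, which was USP2. Summed over the members, FPKM was 682, 686 and 708 in oeNC and 708, 622 and 690 in oeSTUB1, so that the groups overlapped. The 5 highest members made up 37.6% to 40.5% of this sum.

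**Figure D1:**
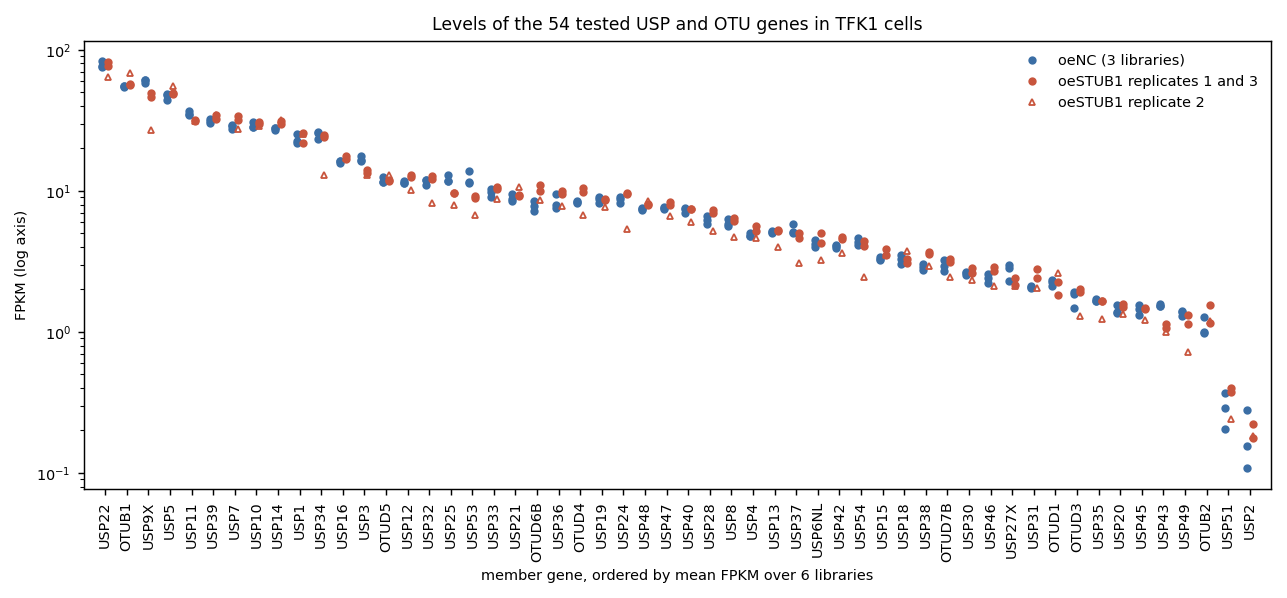
FPKM (log axis) of the 54 tested members in each of the 6 libraries, ordered by mean level, with oeNC libraries in blue, oeSTUB1 replicates 1 and 3 in red and oeSTUB1 replicate 2 as open triangles. USP22 is highest and USP2 lowest, and the open triangles of many long genes, such as USP9X, USP34 and USP24, lie below all other points of the gene.

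USP22, the deubiquitinase of the SAGA complex, was the most abundant member at 77.1, 75.5 and 83.2 FPKM in oeNC and 82.5, 64.4 and 77.4 FPKM in oeSTUB1. The groups overlapped (log2 fold change -0.08, adjusted p = 0.66 from limma). OTUB1, which also blocks ubiquitin-conjugating enzymes without cleaving anything, came next at 54.4, 55.3 and 55.2 FPKM in oeNC and 56.3, 68.2 and 57.2 FPKM in oeSTUB1. Its groups did not overlap, but the highest value was that of oeSTUB1 replicate 2, and the log2 fold change of 0.13 did not pass the test (adjusted p = 0.37 from limma). USP5, which disassembles unanchored ubiquitin chains, was at 48.8, 47.7 and 43.9 FPKM in oeNC and 48.8, 55.1 and 49.8 FPKM in oeSTUB1. In the order of levels OTUB1, USP9X and USP5 are neighbours whose values over the 6 libraries overlapped, and USP11, the next member, lay below USP5 in every library.

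Below the filter of 0.1 FPKM were 5 members, whose fragments are given instead. USP26, a gene known from testis, had 1 fragment in all 6 libraries together. USP50 had 2, 0 and 3 fragments in oeNC and 0, 4 and 0 in oeSTUB1, and part of its exons lies opposite those of USP8. USP6, an oncogene of bone and soft tissue tumors, had 7, 10 and 9 fragments against 1, 3 and 11. USP44, an enzyme of the mitotic checkpoint and of histone H2B, had 11, 11 and 32 against 17, 10 and 5. OTUD7A had 37, 38 and 50 fragments against 33, 22 and 18, with every oeSTUB1 library below every oeNC library. In a fit without the filter 0 of these 5 members passed, with OTUD7A at a log2 fold change of -0.32 (SE 0.13, adjusted p = 0.22 from limma). USP26 in both groups and USP50 in oeNC were at the floor of at most 3 fragments in every library, a limit that covers counting error only, and no fold change is given for these 2 members.

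Across the 54 tested members, log2 fold changes of oeSTUB1 over oeNC were small. Fold changes are on the scale of log2(FPKM + 0.1), which understates those of low genes. The median was 0.03, beside 0.02 for all genes tested, with 29 members above 0, 25 below 0 and 41 within 0.2 of 0. The lowest value was -0.61 in USP9X and the highest 0.33 in OTUD6B. At an adjusted p-value under 0.05 from limma, 4 members were lower and 0 were higher in oeSTUB1 (7.41% and 0% of the 54), where 6.59% of all genes tested were lower and 7.01% higher. The share of lower members was thus near that of all genes. Limma-voom on the recovered fragments also gave 4 lower and 0 higher members, but the shares of all genes were not counted in that fit. At an unadjusted p-value under 0.05 the numbers were 6 lower and 2 higher, and the corresponding shares of all genes were 13.7% and 16.0%. No member had an adjusted p-value under 0.05 together with an absolute log2 fold change over 1, which 5.20% of all genes did.

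The 4 members that fell were USP3, USP25, USP43 and USP53. USP3, which removes ubiquitin from histones H2A and H2B, was at 16.3, 16.6 and 17.8 FPKM in oeNC and 13.3, 12.9 and 14.0 FPKM in oeSTUB1. All 3 oeSTUB1 libraries lay below all 3 oeNC libraries, and the mean fell by 21.0% (log2 fold change -0.34, SE 0.078, adjusted p = 0.028 from limma). USP25, an enzyme linked to degradation at the endoplasmic reticulum and to signalling through TRAF proteins, was at 11.8, 11.7 and 13 FPKM in oeNC and 9.59, 7.99 and 9.71 FPKM in oeSTUB1. The groups were again separate, and the mean fell by 25.4% (log2 fold change -0.42, SE 0.10, adjusted p = 0.032 from limma). USP43, a little-studied enzyme, was low, at 1.52, 1.57 and 1.52 FPKM in oeNC and 1.14, 0.996 and 1.06 FPKM in oeSTUB1. Its oeNC values lay close together, well above the oeSTUB1 values, and the mean fell by 30.6% (log2 fold change -0.49, SE 0.12, adjusted p = 0.036 from limma). USP53, a tight junction protein whose loss is known to cause cholestasis, was at 11.5, 11.4 and 13.8 FPKM in oeNC and 9.27, 6.69 and 8.91 FPKM in oeSTUB1. Its mean fell by 32.1% with no overlap (log2 fold change -0.56, SE 0.14, adjusted p = 0.039 from limma).

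These 4 calls were close to the threshold. With the replicate number as a block only USP53 passed, without the eBayes trend only USP43, and without the filter on low values only USP25 and USP3. Without any 1 of the oeNC libraries 0 members passed, lower or higher. USP53 alone passed without oeSTUB1 replicate 1, and USP25 and USP3 passed without oeSTUB1 replicate 3. In these refits the share of all genes that passed was not counted. Whether fewer calls are particular to the members is therefore not known. Without oeSTUB1 replicate 2 the same 4 genes passed, with log2 fold changes of -0.31 for USP3, -0.33 for USP25, -0.45 for USP43 and -0.42 for USP53. A lowess length correction, made in each library, also kept all 4, with -0.26, -0.36, -0.43 and -0.49 in the same order. USP3 was then just under the threshold (adjusted p = 0.049 from limma). With the length correction and the replicate block together USP25 and USP53 passed, but USP3 (adjusted p = 0.066 from limma) and USP43 (adjusted p = 0.072) did not. In GENCODE 29, exons of USP3 overlap those of USP3-AS1 on the opposite strand over 1760 of 7764 bases, and reads of the 2 genes cannot be told apart if strand was not used in the counting.

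**Figure D2:**
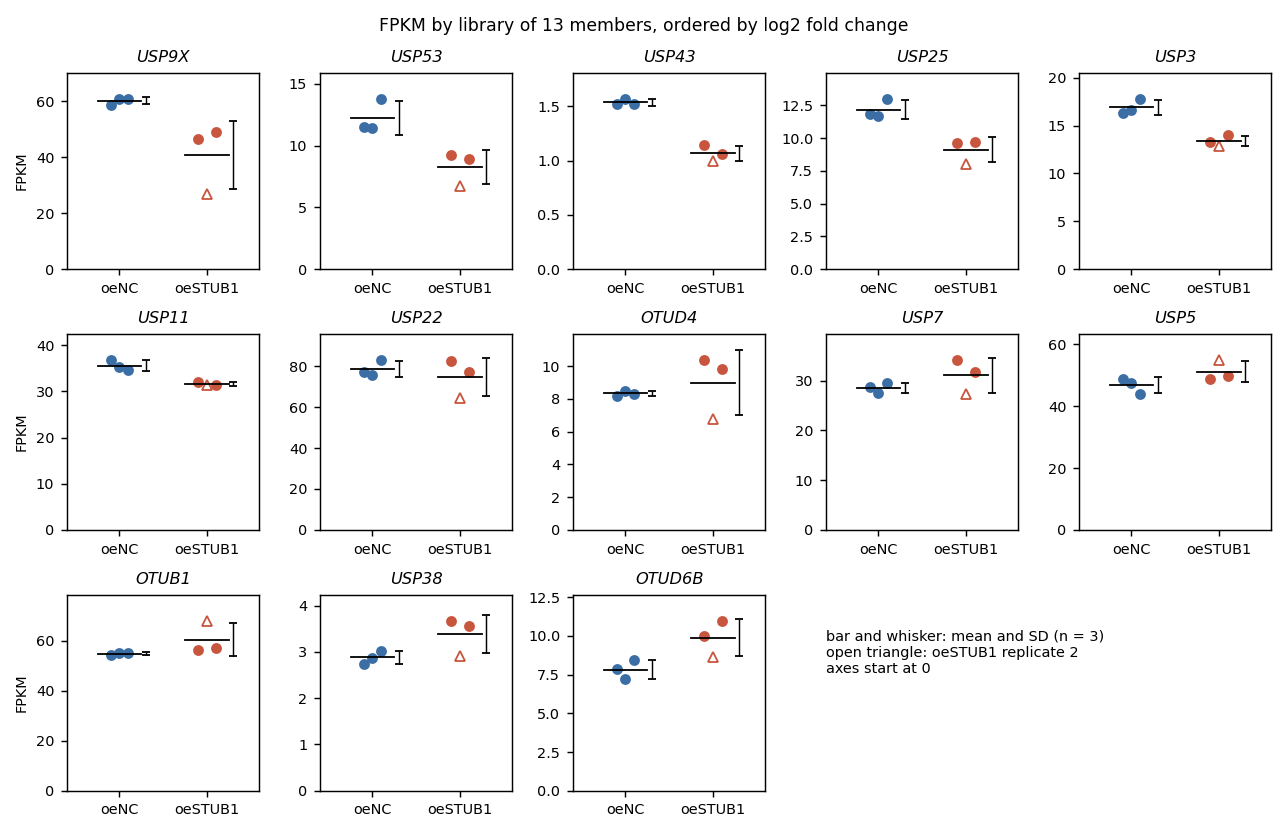
FPKM of 13 members in each library, with a bar at the mean, a whisker for the SD (n = 3 per group) and an open triangle for oeSTUB1 replicate 2, on axes that start at 0. USP53, USP43, USP25, USP3, USP11 and USP9X have all oeSTUB1 libraries below all oeNC libraries, whereas OTUD4, USP7, USP22, USP38 and USP5 overlap.

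Without oeSTUB1 replicate 2, 6 members were lower and 4 were higher at an adjusted p-value under 0.05 from limma (11.1% and 7.41% of the 54), where 12.0% of all genes were lower and 14.8% higher. With the length correction on all 6 libraries the numbers were 6 lower and 1 higher (11.1% and 1.85%), against 9.70% and 12.7% of all genes. Of these 4 shares, that of lower members under the correction was above the share of all genes and the other 3 were below it. The median log2 fold change of the members was 0.08 without the library and 0.07 with the correction, and that of all genes 0.03 and 0.04. Of the 54 members, 14 had the opposite sign without oeSTUB1 replicate 2, and none of these passed the test in either fit.

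USP9X, a large X-linked enzyme of endosomal, Hippo and apoptotic signalling, had the lowest log2 fold change with all 6 libraries. It was at 58.6, 60.8 and 60.7 FPKM in oeNC and 46.4, 26.9 and 49.1 FPKM in oeSTUB1, from 25697, 26637 and 28183 fragments against 20181, 11266 and 21195. Every oeSTUB1 library was lower than every oeNC library, and replicate 2 was far below the other two. Because of this spread the log2 fold change of -0.61 (SE 0.21) did not pass with all libraries (adjusted p = 0.097 from limma). Without replicate 2 it was -0.33 (SE 0.045, adjusted p = 0.0027), a smaller change than in USP43, USP53 and OTUD6B, and with the length correction -0.47 (SE 0.092, adjusted p = 0.0093), a smaller change than in USP53. USP11, a BRCA2 partner in DNA repair that also lies on the X chromosome, showed a smaller step. It was at 36.9, 35.2 and 34.6 FPKM in oeNC and 32.0, 31.4 and 31.3 FPKM in oeSTUB1, with no overlap. Its log2 fold change was -0.17 with all libraries (adjusted p = 0.14 from limma), -0.17 without replicate 2 (adjusted p = 0.036) and -0.18 with the length correction (adjusted p = 0.047).

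The 4 members that rose without oeSTUB1 replicate 2 were OTUD6B, USP38, OTUD4 and USP7. OTUD6B, an OTU enzyme linked to the proteasome and to translation, was at 7.86, 7.22 and 8.42 FPKM in oeNC and 10.0, 8.62 and 11.0 FPKM in oeSTUB1. Its groups did not overlap even with replicate 2, and the log2 fold change was 0.33 with all libraries (adjusted p = 0.098 from limma) and 0.42 without it (adjusted p = 0.010). USP38, which is known to act on the kinase TBK1, was at 2.75, 2.88 and 3.03 FPKM in oeNC and 3.68, 2.91 and 3.56 FPKM in oeSTUB1. Its log2 fold change was 0.22 with all libraries (adjusted p = 0.28), 0.32 without replicate 2 (adjusted p = 0.030) and 0.31 with the length correction (adjusted p = 0.036), the one rise under that correction.

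OTUD4, an OTU enzyme that serves as a scaffold for USP enzymes in the repair of alkylated DNA, was at 8.19, 8.51 and 8.33 FPKM in oeNC and 10.4, 6.76 and 9.84 FPKM in oeSTUB1. Replicates 1 and 3 were above all oeNC libraries and replicate 2 below them, so that the log2 fold change was 0.08 (adjusted p = 0.76) with and 0.28 (adjusted p = 0.014) without it. USP7 was at 28.7, 27.5 and 29.5 FPKM in oeNC and 34.2, 27.3 and 31.7 FPKM in oeSTUB1. Its pattern was the same in kind, with a log2 fold change of 0.11 (SE 0.097, adjusted p = 0.48) with and 0.20 (SE 0.054, adjusted p = 0.030) without replicate 2. With the length correction USP7 had a log2 fold change of 0.18 and missed the threshold (adjusted p = 0.056). UHRF1, a substrate of USP7, was at 11.6, 11.1 and 10.7 FPKM in oeNC and 15.5, 12.2 and 12.9 FPKM in oeSTUB1. Its log2 fold change of 0.27 did not pass the test (adjusted p = 0.13 from limma). DNMT1 was at 29.1, 28.4 and 30.0 FPKM in oeNC and 32.3, 23.6 and 30.8 FPKM in oeSTUB1 (log2 fold change -0.03, adjusted p = 0.9 from limma). Here too replicates 1 and 3 were above all oeNC libraries and replicate 2 below them, so that the log2 fold change of DNMT1 rests on replicate 2. For UHRF1 and DNMT1 no fit without replicate 2 is given.

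**Figure D3:**
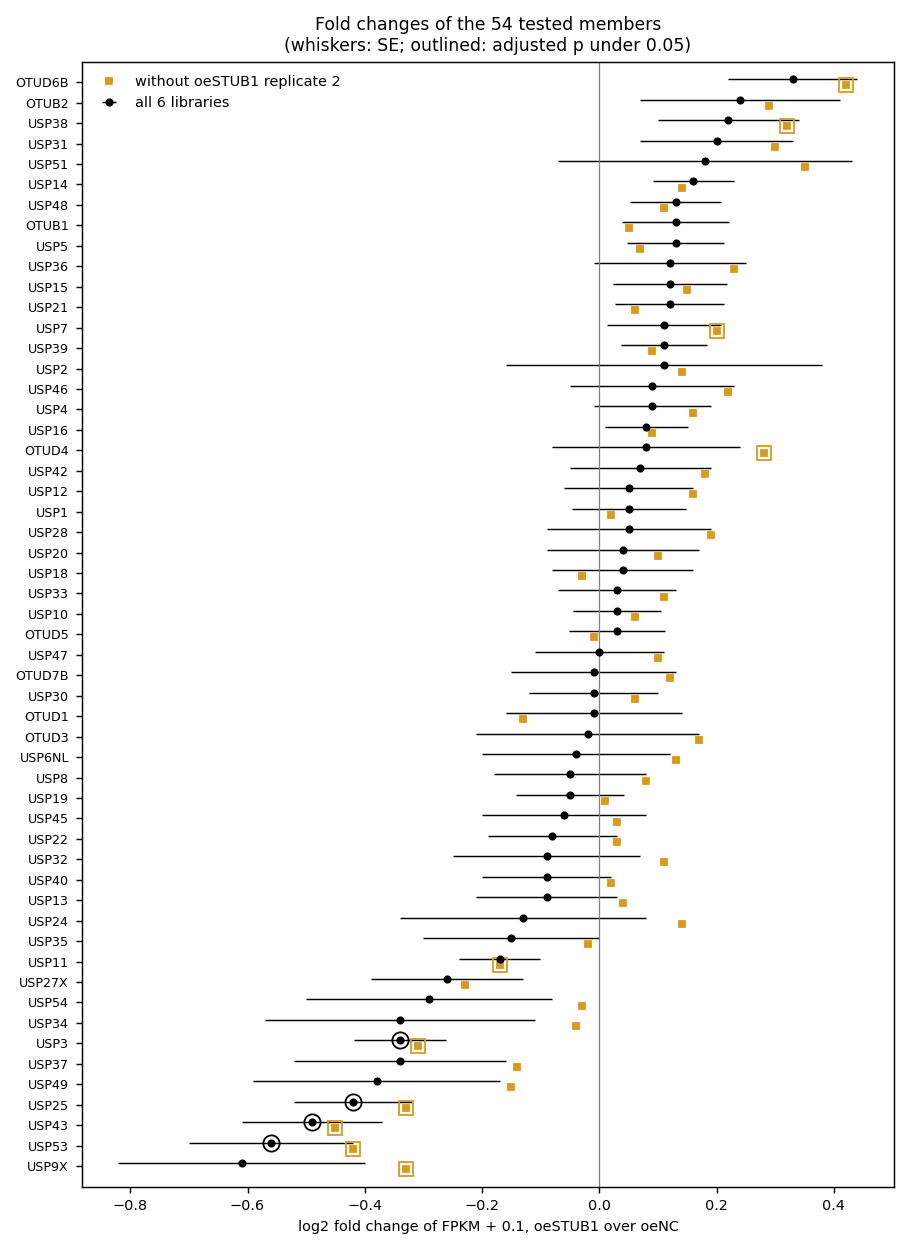
Log2 fold change of each tested member, oeSTUB1 over oeNC, with all 6 libraries (black, whisker SE) and without oeSTUB1 replicate 2 (squares), outlined where the adjusted p-value from limma was under 0.05. USP3, USP25, USP43 and USP53 are outlined in both fits, and USP34, USP24, USP54 and USP37 move towards or past 0 when the library is left out.

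Counted by groups that did not overlap, 6 members were higher in all 3 oeSTUB1 libraries and 7 were lower (11.1% and 13% of the 54), beside 21.5% and 17.3% of all genes tested. The 6 higher members were OTUB1, OTUD6B, USP14, USP15, USP16 and USP48. USP14, which trims ubiquitin on the proteasome, was at 28.1, 27.8 and 26.9 FPKM in oeNC and 31.1, 31.6 and 30.0 FPKM in oeSTUB1 (log2 fold change 0.16, adjusted p = 0.17 from limma). Its 3 oeSTUB1 values were close to each other, but the step was 11.8% of the oeNC mean. The 7 lower members were the 4 that fell, USP9X, USP11 and USP37. USP37, which stabilizes cyclin A, was at 5.06, 5.13 and 5.78 FPKM in oeNC and 5.0, 3.10 and 4.66 FPKM in oeSTUB1, where replicate 2 made most of the difference (log2 fold change -0.34, and -0.14 without it). Exons of USP37 overlap those of VIL1 on the opposite strand over 3045 of 9290 bases, with the same limit as for USP3. Of the tested members, 14 have such an overlap with a gene in the table.

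Grouped by role, the 4 calls with all libraries fell in 3 classes, and their counts stand beside 6.59% of all genes lower and 7.01% higher. Of the 9 tested members that act on histones or chromatin, 1 fell (USP3), and their median log2 fold change was 0.07. The 8 members of DNA repair and the cell cycle had 0 calls and a median of 0.02, from -0.34 in USP37 to 0.11 in USP7. USP1, the deubiquitinase of FANCD2 and PCNA, averaged 23.3 ± 1.8 FPKM in the oeNC and 24.2 ± 2.17 FPKM in the oeSTUB1 libraries (SD, n = 3 each), and USP10, which acts on p53, averaged 29.1 ± 1.45 and 29.8 ± 1.12 FPKM. The means of these 2 genes differed by less than the SD. The 3 members for free ubiquitin and the proteasome, USP5, USP13 and USP14, had 0 calls and a median of 0.13.

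The 8 members of signalling pathways had 0 calls, a median of 0.07 and values from -0.61 in USP9X to 0.12 in USP15. USP18, the ISG15 protease that damps interferon signalling, averaged 3.26 ± 0.243 FPKM in the oeNC and 3.37 ± 0.342 FPKM in the oeSTUB1 libraries (SD, n = 3 each). Among 7 tested members of membranes and organelles 1 fell (USP25), with a median of -0.05, and USP30, the deubiquitinase of the mitochondrial outer membrane that opposes parkin, was at 2.60 ± 0.0722 and 2.59 ± 0.254 FPKM. USP36 of the nucleolus and USP39 of the spliceosome had log2 fold changes of 0.12 and 0.11. Of 8 other USP genes 2 fell (USP43 and USP53), with a median of -0.14. The 8 tested OTU members had 0 calls, a median of 0.06 and values from -0.02 in OTUD3 to 0.33 in OTUD6B. USP6NL, which like USP39 is no deubiquitinase, had a log2 fold change of -0.04. Without oeSTUB1 replicate 2, where 12.0% of all genes were lower and 14.8% higher, calls were added in 4 classes. These were USP9X, lower, in signalling, USP11, lower, and USP7, higher, in DNA repair and the cell cycle, OTUD4 and OTUD6B, higher, among the OTU members, and USP38, higher, among the other USP genes. The class medians changed in that fit as well. The median was 0.08 for membranes and organelles, 0.00 for the other USP genes, and 0.14 for both signalling and the OTU members. It was 0.06 for histones and chromatin, 0.04 for DNA repair and the cell cycle, and 0.07 for free ubiquitin and the proteasome.

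Gene length had to be considered because the members are long. The lengths contained in the FPKM values had a median of 6352 bases in the tested members, from 1701 in OTUB1 to 19350 in USP8, and of 3694 bases in all genes tested. With all genes divided by length into 4 classes of like size, 29 of the 54 members were in the longest class (6124 to 44221 bases), 15 in the third, 9 in the second and 1 in the shortest. The difference between oeSTUB1 replicate 2 and the mean of replicates 1 and 3, on the log2 scale, had a median of 0.27, 0.05, -0.21 and -0.38 in members from the shortest to the longest class. The medians of all genes in the same classes were 0.33, 0.13, -0.09 and -0.34. Across the 54 members, which share these libraries, Spearman's correlation of the difference with length was -0.65, beside -0.56 across all genes. The same quantity in the oeNC libraries gave correlations between -0.11 and 0.16 over the members.

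This library was the lowest of its group in 39 of the 54 members, and in 42.7% of all genes. The lowest difference was -0.91 in USP34, a regulator of Wnt signalling, at 24.8, 12.9 and 24.1 FPKM in the 3 oeSTUB1 libraries and 23.5, 26.0 and 25.9 FPKM in oeNC. USP24 followed the same course, at 9.58, 5.39 and 9.53 FPKM in oeSTUB1 and 8.21, 8.73 and 9.11 FPKM in oeNC. Replicates 1 and 3 lay within the oeNC range for USP34 and above it for USP24, and the log2 fold changes were -0.34 and -0.13 with replicate 2 but -0.04 and 0.14 without it. Long members did not all follow, since USP15 with 18511 bases was at 3.90, 3.51 and 3.49 FPKM in oeSTUB1. Within oeNC the median SD of the members' log2 values was 0.07, and within oeSTUB1 it was 0.18. The median absolute difference of replicates 1 and 3 was 0.07, and that of replicate 2 from their mean 0.29.

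**Figure D4:**
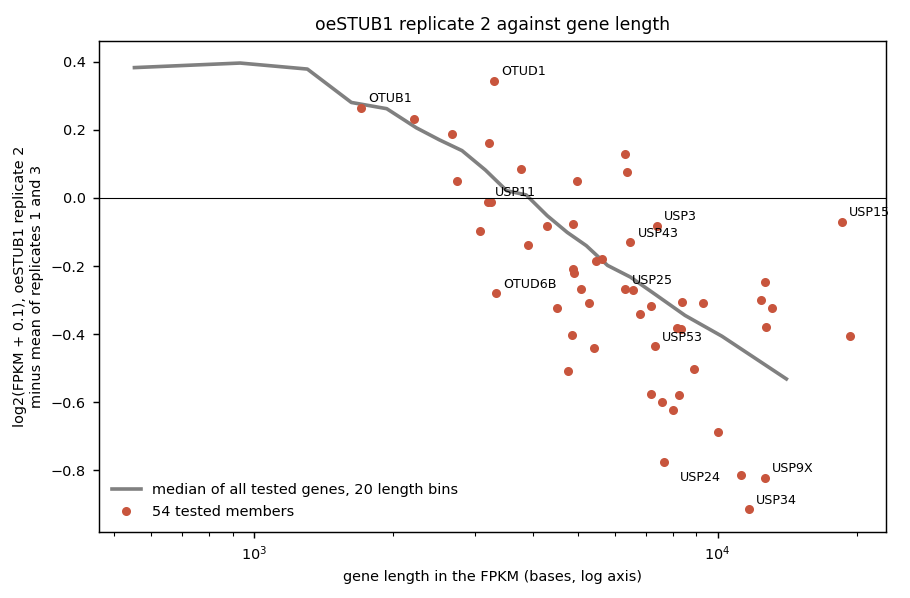
Difference between oeSTUB1 replicate 2 and the mean of oeSTUB1 replicates 1 and 3 in log2(FPKM + 0.1), against gene length in bases (log axis), for 54 members (points) and as the median of all tested genes in 20 length bins (line). Members fall with length as the line does, but USP34 (-0.91), USP9X (-0.82), USP24 (-0.81) and USP54 (-0.78) lie far below it and USP15 and OTUD1 well above it.

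Of the 4 genes that fell, USP3 and USP43 differed little from replicates 1 and 3 in this library, by -0.08 and -0.13, although they are 7398 and 6488 bases long. USP25 (6315 bases) was at -0.27 and USP53 (7315 bases) at -0.44. In each of the 4 genes, replicates 1 and 3 were also below all oeNC libraries. The log2 ratios of replicates 1 and 3 to the oeNC mean were -0.35 and -0.27 for USP3, -0.34 and -0.33 for USP25, -0.40 and -0.50 for USP43, and -0.39 and -0.45 for USP53. For USP9X they were -0.37 and -0.29, and replicate 2 was at -1.15.

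Ratios within pairs of paralogs were compared, since several of these enzymes have a close relative. Of 15 pairs with both genes tested, the ratio of FPKM did not overlap between the groups in 6, with 2 higher and 4 lower in oeSTUB1. An exact permutation test of 3 libraries against 3 cannot give a p below 0.1. The share over other gene pairs was not counted, but single genes did not overlap in 21.5% (higher) and 17.3% (lower) of all genes tested. Apart from USP35 and USP38, each separate pair holds USP9X, USP11, USP25 or USP43, which were lower themselves, and USP11 recurs. USP9X and USP24 are both long, with 12631 and 11241 bases, and both were low in oeSTUB1 replicate 2. Their ratio was 7.14, 6.97 and 6.66 in oeNC and 4.84, 5.0 and 5.15 in oeSTUB1, and replicate 2 lay between the other two. The ratio of USP25 to USP28 was 2.03, 1.78 and 2.08 in oeNC and 1.31, 1.53 and 1.39 in oeSTUB1. That of USP31 to USP43 was 1.34, 1.36 and 1.37 in oeNC and 2.46, 2.07 and 2.27 in oeSTUB1. The ratios of USP11 to USP15 and of USP35 to USP38 were lower in all oeSTUB1 libraries, and that of USP4 to USP11 was higher. USP53 and USP54 had ratios of 2.80, 2.45 and 3.18 against 2.09, 2.74 and 2.18, which overlapped. The pairs of USP12 and USP46, USP20 and USP33, USP5 and USP13, and OTUB1 and OTUB2 overlapped as well.

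**Figure D5:**
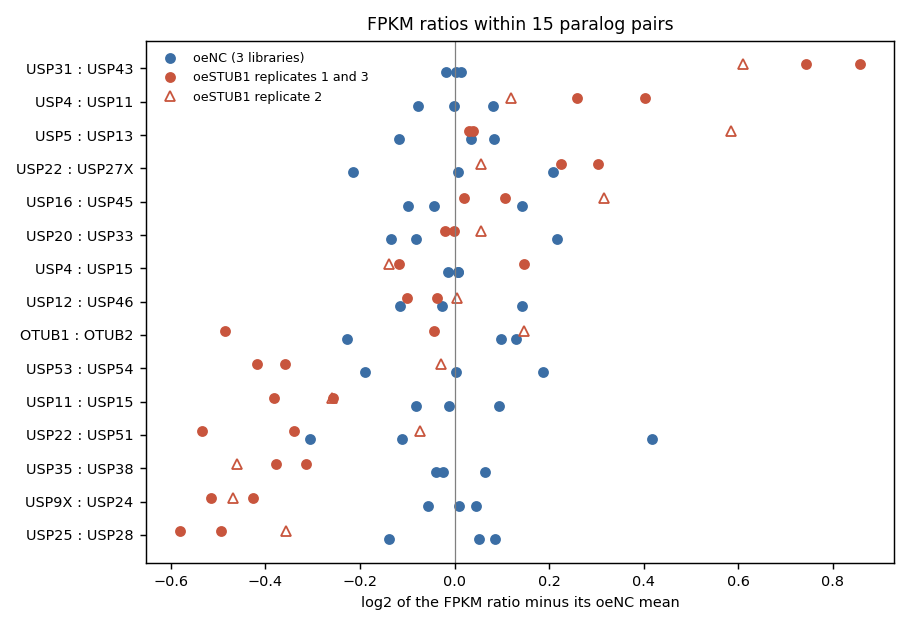
Log2 ratio of FPKM within 15 paralog pairs in each library, minus the mean log2 ratio of the 3 oeNC libraries, with oeSTUB1 replicate 2 as open triangles. Of these pairs, 6 have separate groups, and in the pair of USP9X and USP24 the triangle lies between the other oeSTUB1 points.

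Other genes linked to ubiquitin removal were taken from lists by class, not by known activity. Of 27 genes of other deubiquitinase classes or with other symbols, 26 were tested, 2 were higher and 0 lower in oeSTUB1 (7.69% and 0%, beside 7.01% and 6.59% of all genes), and the median log2 fold change was 0.07. TNFAIP3, the OTU-class enzyme A20 that restrains NF-kB signalling, was at 1.07, 1.24 and 1.54 FPKM in oeNC and 3.73, 2.83 and 4.31 FPKM in oeSTUB1, so that the groups were far apart (log2 fold change 1.42, SE 0.19, adjusted p = 0.0028 from limma). STAMBPL1, a JAMM-class metalloprotease of endosomes, was at 1.30, 1.49 and 1.34 FPKM in oeNC and 3.02, 2.61 and 2.25 FPKM in oeSTUB1 (log2 fold change 0.88, SE 0.14, adjusted p = 0.0060 from limma). Both rises were larger than that of any USP or OTU member. Among the 11 partners of these enzymes, such as WDR48 of USP1 and USP12, and among 6 genes of ubiquitin and its E1 enzymes, 0 were higher and 0 lower. The 3 genes of the USP class with another symbol, CYLD, USPL1 and PAN2, had log2 fold changes of 0.09, 0.15 and -0.08. Without oeSTUB1 replicate 2, 5 of the 26 tested genes of these other classes or symbols were higher (BRCC3, JOSD2, STAMBPL1, TNFAIP3 and YOD1) and 3 lower (MPND, PSMD14 and STAMBP), which is 19.2% and 11.5% beside 14.8% and 12.0% of all genes. In that fit G3BP1 and HGS were higher and STAM2 lower among the 11 partners, and RPS27A was lower among the 6 genes.

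By chromosome, the 4 members on chromosome 2 (USP34, USP37, USP39 and USP40) had a median log2 fold change of -0.21, and so did the 1031 tested genes of that chromosome. Without oeSTUB1 replicate 2 the median of these members was -0.01 and that of the genes -0.18. The 5 tested members on the X chromosome had a median of -0.17, where the 497 genes there had 0.06. Of the genes that fell, USP3 is on chromosome 15 of GRCh38 from 63504511 to 63594640, USP25 on chromosome 21 from 15730025 to 15880069, USP43 on chromosome 17 from 9644698 to 9729691 and USP53 on chromosome 4 from 119212587 to 119295517, all protein coding on the plus strand in GENCODE 29. USP9X is on the X chromosome from 41085635 to 41236579 and USP11 on the same chromosome from 47232690 to 47248328, on the plus strand as well.

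Promoters of the members are shown because the study concerns silencing by DNA methylation, which acts on CpG sites. RefSeq sequences on GRCh38.p14, from 250 bases before to 50 bases after the start of the gene, were matched for 46 of the 59 members. The median number of CpG in these 300 bases was 33.5 in the members, 26 in the 11980 tested genes with a promoter and 14 in all 27305 promoters. In 5 of these members the RefSeq start lies over 1000 bases inside the GENCODE 29 gene (USP2, USP7, USP32, USP45 and USP54), so that the 300 bases belong to another start, and the median of the other members was 34. The number was below 5 in USP30 and USP50, and also in USP7 and USP54, whose RefSeq starts lie 14860 and 34611 bases inside. The genes that fell had 38 CpG (USP3), 34 (USP25) and 28 (USP53), and 20 were found for USP11, while OTUD4 and USP38, which were higher without oeSTUB1 replicate 2, had 46 and 26. Shown for 5 of these genes are the 120 bases nearest to the start that lie before it in both RefSeq and GENCODE 29, 5′ to 3′ on the strand of the gene, with each CpG in capitals. For USP11 and USP9X no such stretch is printed.
USP3 (GRCh38.p14, chr15:63504391-63504510, plus strand): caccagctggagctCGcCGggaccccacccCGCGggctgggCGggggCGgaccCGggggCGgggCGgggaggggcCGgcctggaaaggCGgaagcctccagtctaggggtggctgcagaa
USP25 (GRCh38.p14, chr21:15729862-15729981, plus strand): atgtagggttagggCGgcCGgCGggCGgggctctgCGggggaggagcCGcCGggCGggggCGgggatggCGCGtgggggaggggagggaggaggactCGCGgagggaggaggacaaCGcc
USP53 (GRCh38.p14, chr4:119212467-119212586, plus strand): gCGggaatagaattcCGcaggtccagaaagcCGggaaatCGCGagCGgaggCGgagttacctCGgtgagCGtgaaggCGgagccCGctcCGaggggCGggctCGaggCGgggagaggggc
OTUD4 (GRCh38.p14, chr4:145180590-145180709, minus strand): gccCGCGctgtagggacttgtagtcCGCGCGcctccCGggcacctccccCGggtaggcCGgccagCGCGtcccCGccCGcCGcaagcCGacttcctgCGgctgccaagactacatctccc
USP38 (GRCh38.p14, chr4:143184797-143184916, plus strand): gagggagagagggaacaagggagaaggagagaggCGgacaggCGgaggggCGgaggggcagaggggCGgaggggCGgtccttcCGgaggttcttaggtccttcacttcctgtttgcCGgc
The stretches of USP3, USP25 and USP53, which fell, held 11, 14 and 15 CpG, and those of OTUD4 and USP38 held 15 and 7. Whether the number of CpG bears on these changes was not tested. Methylation itself was not analysed here.

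The 300 bases were also searched on both strands for 4 short motifs, none of which contains another. Shares are given over all promoters, since those over the tested genes alone were not counted. The median number of CpG was 14 in all promoters and 26 in those of tested genes. CACGTG, an E-box of the MYC family that itself holds a CpG, was found in 13% of the matched members (OTUB2, OTUD1, USP28, USP32, USP36 and USP6NL) and in 7.43% of all promoters. CCAAT was found in 30.4% of the members and 35.7% of all promoters. TTTGGCGC, which can be bound by E2F factors, was present in 1 member (OTUD7B) and 0.659% of all promoters, and TTTCGCGC in 0 members and 0.546% of all promoters. Of the 3 members that fell and had a promoter sequence, USP53 held CCAAT and no other match was found in these windows.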

How the data were processed

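TFK1 RNA-seq was compared between 3 oeNC and 3 oeSTUB1 libraries, grouped by the sample labels and matched to table columns by name. Value columns of no sample numbered 0. The authors deposited FPKM for 23569 genes by symbol, from total RNA extracts with a VAHTS library kit. The submitters' processing notes name fastp 0.20.1, HISAT2 2.1.0, HTSeq 0.11.2, R 3.2.0, DESeq2 1.22.2 and GRCh38.p13, with no role or order given. Whether strand was used is not given in the sources used here. FPKM depend on the gene length used, so an uneven coverage of long transcripts shifts long genes.

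Whole fragments, gene lengths and library totals were recovered from the FPKM steps (tolerance 0.0003 fragments) for 23569 of 23569 genes, with recomputed FPKM within 1.1e-05. A divisor shared by all fragments of a gene would make them and its length too low. Replicates differed by more than sampling noise (chi-square per degree of freedom 3.48 to 82.6). Limma 3.58.1 in R 4.3.3 (lmFit, eBayes with trend, two-sided) was run on log2(FPKM + 0.1) for the 15353 genes whose mean was 0.1 FPKM or more, with Benjamini-Hochberg adjustment over all of them and a threshold of 0.05. The length correction subtracted a lowess curve (span 0.3) of each library's deviation on log2 length. Recovery and fits were tested on simulated data, in which the log2 changes set were larger than that of any tested member. The simulation therefore does not show how well changes as small as those of the members are called. Python 3.11.15 was used for the rest. The members and lists were chosen with earlier results of these data known. Values by library are given for members that passed the test with all libraries, without oeSTUB1 replicate 2 or with the length correction, for USP7 and for the 5 highest members. Other members and genes were named after their values were seen, as examples of a class, of length or of paralogs, and of the other lists the genes that passed with all libraries are named. Library quality weights, and the length correction without oeSTUB1 replicate 2, were added after the data were seen. Positions are from GENCODE 29 on GRCh38, and promoters and chromosomes from RefSeq on GRCh38.p14. Protein sequences were not used here.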

Additional observations from a re-analysis of the deposited data

How the results depend on the processing

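With 19 alternatives, the number of members higher in oeSTUB1 moved from 0 to 4 without oeSTUB1 replicate 2, with library quality weights, and with the length correction without that replicate. It moved to 1 with the length correction on all libraries, but the gene was USP38 without a replicate block and OTUD6B with it. It was 0 in the other settings. The number of lower members moved from 4 to 2 without a filter, to 1 without an eBayes trend, to 1 with the replicate block and to 0 at an adjusted p-value under 0.01, and leaving out 1 library gave 0 to 6. The cause of these shifts was not tested. Shares of all genes were counted only in the main fit, without oeSTUB1 replicate 2 and with the length correction on all libraries. Replicate numbers were shared by the groups, but no source says that they mark a pair or a batch. The deviations of same-numbered libraries from their group means correlated by -0.049, -0.052 and 0.062. Those of the oeSTUB1 libraries 1, 2 and 3 followed gene length (Spearman's correlation 0.47, -0.56 and 0.38 over all genes). Libraries 1 and 3 were measured against values that include replicate 2, so their positive correlations need not be length trends of their own. The correlations of same-numbered libraries therefore cannot tell whether libraries were paired. With the replicate block USP53 alone passed. With the length correction and replicate block together 3 members were lower (USP25, USP53 and USP9X) and 1 higher (OTUD6B). Of the 13 members named by the rule, OTUD4 ranged from -0.03 without oeSTUB1 replicate 1 to 0.28 without replicate 2, its one turn in direction. USP22 ranged from -0.15 without oeSTUB1 replicate 1 to 0.03 without replicate 2, and turned to 0.01 with quality weights and to 0.01 with the length correction without that replicate. Of the remaining values of these members, 192 kept their direction and side of the threshold, 24 newly passed it and 27 no longer did. The adjusted p-value of USP9X lay between 0.0023 and 0.23 over the 19 alternatives, that of USP3 between 0.0047 and 0.12, and that of USP7 between 0.030 and 0.89. Quantile normalization added USP11 to the lower members. In the fit without a filter 0 of the 5 members below it passed, with adjusted p-values from 0.22 to 0.88, at 50 fragments or fewer per library.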
